A study of Mus musculus with 6 samples.

Results

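The neurotrophic signalling genes followed here are 9 genes: the ligands Bdnf, Ntf3 and Gdnf, and the receptors Ngfr, Ntrk2, Ntrk3, Gfra1, Gfra2 and Cntfr. They were taken by name from a table of raw gene counts whose 57010 Ensembl identifiers were paired with mouse symbols, and all 9 were found. Dermal fibroblasts from the ears of mice were kept for 3 days on a soft polyacrylamide gel of 1 kPa, on a stiffer polyacrylamide gel of 20 kPa, or on glass, which was the control and is far stiffer than either gel. Each group had 2 libraries of polyadenylated RNA, and 500000 fibroblasts were put on each substrate. The series concerns reprogramming of fibroblasts into neurons, but the labels name neither a reprogramming factor nor a strain, age or sex. Separate animals or cultures are not mentioned for the libraries within a group, and the spread on which the p-values rest may therefore be technical.

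Neurotrophins are small secreted proteins that keep neurons alive and guide their branching. Each binds a receptor tyrosine kinase of the Trk family, and all of them also bind Ngfr, a death-domain receptor that is abundant on immature and injured Schwann cells. GDNF and its relatives use a different system, in which a lipid-anchored coreceptor of the GFRA family binds the ligand and brings in the kinase Ret. CNTF binds the anchored receptor Cntfr, which then joins Lifr and Il6st to signal through JAK kinases and STAT3. In skin, several of these ligands are made by non-neuronal cells, and sensory and sympathetic nerve endings respond to them.

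The 9 genes lie on 9 chromosomes (GRCm38 positions of GENCODE M21, all protein-coding), and their counts are sums over annotated exons. Bdnf (ENSMUSG00000048482.15) spans chromosome 2 from 109674700 to 109727007, Ntf3 (ENSMUSG00000049107.14) chromosome 6 from 126101412 to 126166910, and Gdnf (ENSMUSG00000022144.5) chromosome 15 from 7810846 to 7837575. Ngfr (ENSMUSG00000000120.7) spans chromosome 11 from 95568818 to 95587735, Ntrk2 (ENSMUSG00000055254.16) chromosome 13 from 58806569 to 59133970, and Ntrk3 (ENSMUSG00000059146.13) chromosome 7 from 78175959 to 78738012. Gfra1 (ENSMUSG00000025089.16) spans chromosome 19 from 58235604 to 58455909, Gfra2 (ENSMUSG00000022103.11) chromosome 14 from 70890120 to 70979838, and Cntfr (ENSMUSG00000028444.18) chromosome 4 from 41657498 to 41697089. Bdnf, Gdnf, Ntrk2 and Gfra2 are on the plus strand and the others on the minus strand. An opposite-strand gene overlaps 14.4% of the exonic length of Bdnf and 7.6% of that of Gfra1, and whether strand was used in counting is not known, which means those counts may hold reads of the neighbour.

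The sequences just upstream of a start site of Ntrk2, Cntfr and Ngfr are shown because these receptor genes had the largest rises on both gels. The Cntfr window lies inside the span of the gene, whose 5′ end on the minus strand is at 41697089, and so precedes an internal start site. RefSeq windows of GRCm38.p6 were available for 7 of the 9 genes, 20 windows in all. Each sequence below is written 5′ to 3′ on the gene's strand and ends at the start site nearest an annotated transcript start, with bases of annotated exons left out. Capitals mark matches, on either strand, to any of the motifs searched: TGACGTCA and its core TGACG (cyclic AMP response element), TGANTCA (AP-1), GGAATG (TEAD), GGG with CC after 5 further bases (NF-kB) and CANNTG (E-box). TGACGTCA contains TGACG.
Ntrk2, chr13:58806319-58806568, plus strand: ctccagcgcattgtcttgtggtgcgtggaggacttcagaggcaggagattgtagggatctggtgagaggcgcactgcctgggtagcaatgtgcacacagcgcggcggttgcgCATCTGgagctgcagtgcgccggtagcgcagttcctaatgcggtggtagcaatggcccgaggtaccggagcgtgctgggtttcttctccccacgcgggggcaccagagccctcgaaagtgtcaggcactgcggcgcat
Cntfr, chr4:41695454-41695703, minus strand: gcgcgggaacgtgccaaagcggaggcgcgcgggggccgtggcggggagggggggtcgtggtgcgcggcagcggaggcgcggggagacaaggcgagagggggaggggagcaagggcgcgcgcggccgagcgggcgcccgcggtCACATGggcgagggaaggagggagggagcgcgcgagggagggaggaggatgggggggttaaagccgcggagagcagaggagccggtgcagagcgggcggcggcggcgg
Ngfr, chr11:95587736-95587948, minus strand: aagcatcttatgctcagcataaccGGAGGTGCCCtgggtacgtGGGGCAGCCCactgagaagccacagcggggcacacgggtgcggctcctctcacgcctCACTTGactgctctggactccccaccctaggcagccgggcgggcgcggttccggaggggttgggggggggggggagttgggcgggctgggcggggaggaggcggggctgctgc

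All 3 windows are rich in G and C, with 62.8% for Ntrk2, 78.4% for Cntfr and 70.4% for Ngfr, against a median of 52.4% over the 250 upstream bases of all 32851 RefSeq windows. The Ngfr sequence is 213 bases long, since 37 exonic bases were left out, and the others are 250. None of the 3 holds the AP-1, TEAD or cyclic AMP motif letters, and each shows an E-box, a motif present in 66.2% of all windows. The NF-kB letters occur in the Ngfr window only among these 3, and 45.8% of all windows hold them. TGANTCA was in 6.75% and GGAATG in 12.6% of all windows, TGACGTCA in 1.55% and TGACG in 17.8%. These matches are letters in a window and not sites of binding.

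Most of the receptor genes, and the ligand gene Gdnf, were higher on both gels than on glass. Ntrk2, the receptor of BDNF, was 16.4-fold higher on 1 kPa and 15.5-fold higher on 20 kPa, and Cntfr was 8.46-fold and 7.19-fold higher. Gfra2, the receptor preferred by neurturin, went the other way and fell to 0.205 and 0.167 of its level on glass. Bdnf, the ligand of Ntrk2, passed the test in none of the 3 comparisons. Levels are in CPM, the count scaled to the TMM-adjusted library total, and tests are those of edgeR's quasi-likelihood fit over all genes with Benjamini-Hochberg adjustment.

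**Figure D1:**
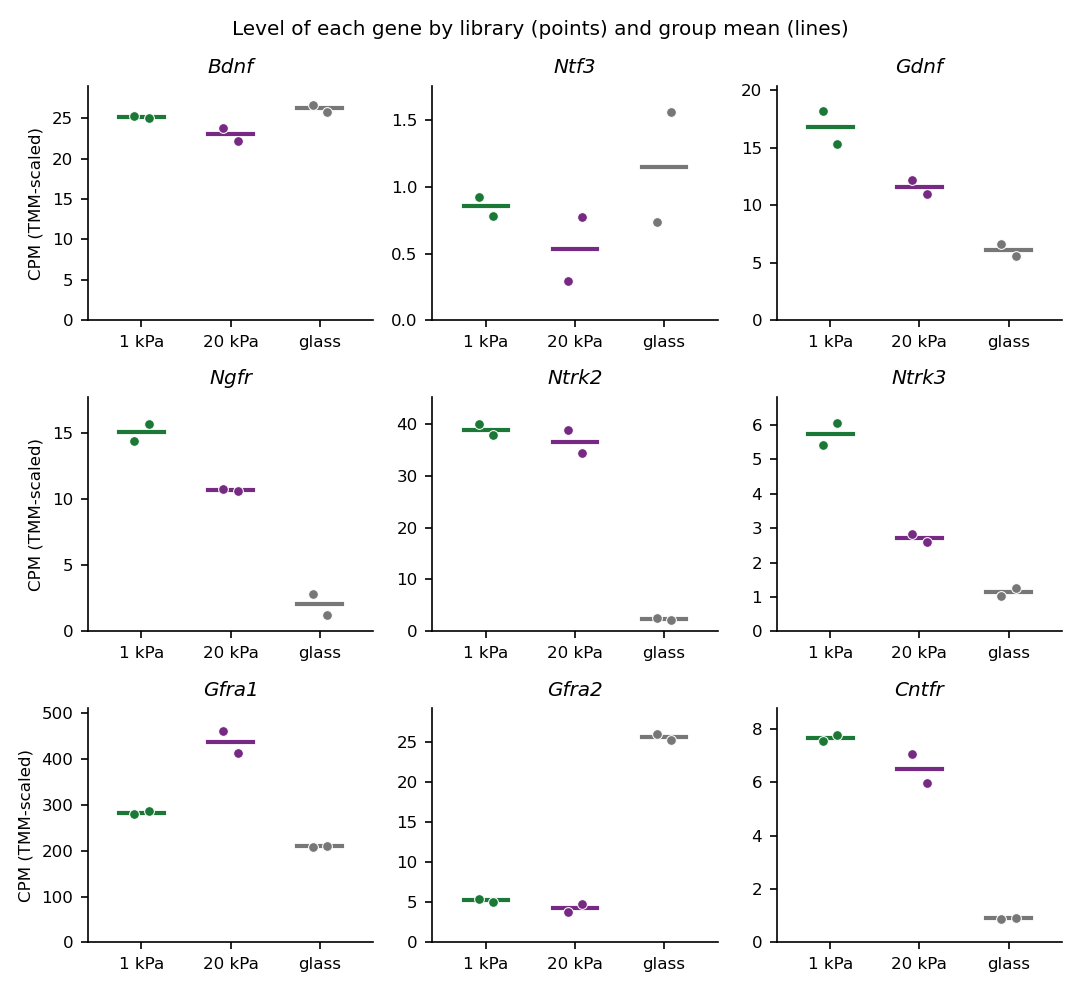
Level of each of the 9 genes in CPM (vertical axes, from 0, a different range in each panel) for the 2 libraries on 1 kPa, 20 kPa and glass (points) with the group mean (line). Gdnf, Ngfr, Ntrk2, Ntrk3, Gfra1 and Cntfr lie higher on both gels than on glass, Gfra2 lies lower, and Bdnf stays between 22.2 and 26.6 CPM.

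Of the 9 genes, 6 were called higher and 1 lower on 1 kPa than on glass, where 45% of 16093 tested genes were called (23% higher, 22% lower). The count on 20 kPa against glass was again 6 higher and 1 lower, with 41.8% of all genes called (22.3% higher, 19.6% lower). The median log2 fold change of the 9 was 1.45 on 1 kPa and 1.06 on 20 kPa, beside 0.00 and 0.02 over all tested genes. For 20 kPa against 1 kPa, 1 gene was called higher and 3 lower, with 18.9% of all genes called (8.94% higher, 9.92% lower). Of those calls 47.4% were higher on 20 kPa, and 60.9% when libraries were scaled by total counts. Both gel comparisons share the glass libraries. All 9 genes passed the filter on low counts, and all 9 would have passed on the glass libraries alone, so none was tested only because it was high on a gel. None had a mean under 10 counts in every group, and Ntf3 was the lowest with 6 to 27 counts in a library.

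**Figure D2:**
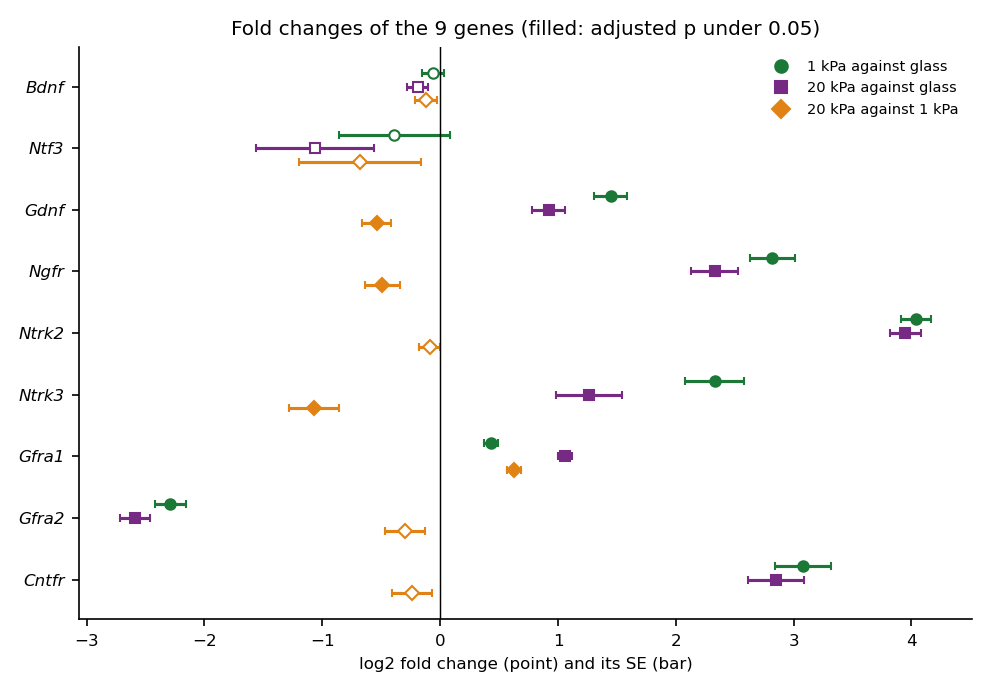
log2 fold change (horizontal axis) with its SE (bars) for the 9 genes in 3 comparisons, 1 kPa against glass (circles), 20 kPa against glass (squares) and 20 kPa against 1 kPa (diamonds); filled symbols have an adjusted p under 0.05. The points for Ntrk2 lie near 4 in both comparisons with glass, those for Gfra2 at -2.29 and -2.59, and those for Bdnf within 0.19 of 0.

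The 6 libraries held between 17669006 and 21350111 counts each, and 3 counts, taken as the floor, equal 0.139 to 0.174 CPM. Fibroblast markers were abundant, and 11 of them summed to 28312 to 29446 CPM on 1 kPa, 30868 to 32127 CPM on 20 kPa and 19592 to 20968 CPM on glass. On 1 kPa 9 of the 11 were called higher and 2 lower, and on 20 kPa 8 higher and 2 lower. Over all tested genes these shares were 23% and 22% on 1 kPa, and 22.3% and 19.6% on 20 kPa. Dcn rose 22.5-fold on 1 kPa and 18.5-fold on 20 kPa, while Vim fell to 0.523 and 0.649 of its level on glass. Markers of Schwann cells, which are known to express Ngfr, were low beside those of fibroblasts. The 13 Schwann cell genes summed to 50.4 to 55.6 CPM on 1 kPa, 64.6 to 65.6 CPM on 20 kPa and 44.4 to 47.1 CPM on glass. The largest part was Egr2 on 1 kPa (16 CPM) and glass (13.8 CPM), and S100b on 20 kPa (15.1 CPM). The sums therefore do not show how each marker moved. Of 10 neuronal markers 7 had under 10 counts in every library, Rbfox3 with 0 throughout, and 2 were tested. Map2 averaged 4.89 CPM on 1 kPa, 8.49 CPM on 20 kPa and 9.67 CPM on glass and was called lower on 1 kPa, and Stmn2 averaged 1.99, 2.14 and 0.688 CPM on 1 kPa, 20 kPa and glass and was called higher on both gels. The muscle stem cell marker Pax7 had 0 counts in every library. In these bulk samples fewer cells of a type and less RNA per cell cannot be told apart.

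Among the ligands, Bdnf, which supports sensory and central neurons, had 25.2 and 25 CPM on 1 kPa, 23.8 and 22.2 CPM on 20 kPa, and 26.6 and 25.8 CPM on glass. The libraries lay close together, and those of the gels all lay below those of glass. The log2 fold changes were -0.06 (SE 0.09, adjusted p = 0.60) on 1 kPa and -0.19 (SE 0.09, adjusted p = 0.098) on 20 kPa, neither past the threshold. The difference between 20 kPa and 1 kPa was -0.12 (SE 0.09, adjusted p = 0.38).

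Ntf3, which encodes neurotrophin-3, the ligand of Ntrk3, was near the detection limit. It had 0.925 and 0.784 CPM on 1 kPa, 0.292 and 0.774 CPM on 20 kPa, and 0.739 and 1.56 CPM on glass. Both gel groups overlapped the glass group. Summed counts were 33 on 1 kPa (95% Poisson interval 22.7 to 46.3), 22 on 20 kPa (13.8 to 33.3) and 43 on glass (31.1 to 57.9), where the intervals cover counting error only. The log2 fold change was -0.39 (SE 0.47, adjusted p = 0.53) on 1 kPa and -1.06 (SE 0.50, adjusted p = 0.089) on 20 kPa. Neither passed the threshold. The value on 20 kPa depended on single libraries, with -1.92 (adjusted p = 0.045) without 20 kPa replicate 2, -1.54 (adjusted p = 0.031) without glass replicate 1, and -0.46 without glass replicate 2.

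Gdnf, a survival factor for motor and dopamine neurons, rose on both gels. Its levels were 18.2 and 15.3 CPM on 1 kPa, 12.2 and 11 CPM on 20 kPa, and 6.65 and 5.56 CPM on glass, with no overlap between any pair of groups. It was 2.73-fold higher on 1 kPa (log2 fold change 1.45, SE 0.14, adjusted p = 4.6e-10) and 1.89-fold higher on 20 kPa (0.92, SE 0.14, adjusted p = 5e-06). Between the gels it was lower on 20 kPa (-0.54, SE 0.12, adjusted p = 0.0022). That last call was lost without 1 kPa replicate 1 (-0.40, adjusted p = 0.099) or without 20 kPa replicate 2 (-0.46, adjusted p = 0.060).

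Among the neurotrophin receptors, Ntrk2 moved most. It had 39.9 and 37.8 CPM on 1 kPa, 38.7 and 34.4 CPM on 20 kPa, and 2.54 and 2.14 CPM on glass. The 2 gels overlapped each other and stood far above glass. The log2 fold change was 4.04 (SE 0.13, adjusted p = 5e-21) on 1 kPa and 3.95 (SE 0.13, adjusted p = 1e-20) on 20 kPa, and the difference between 20 kPa and 1 kPa was -0.09 (SE 0.09, adjusted p = 0.54). Ntrk2 and Ntrk3 are each known to produce full-length kinases and shortened receptors without a kinase, and counts per gene do not separate them.

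Ntrk3, the kinase receptor of neurotrophin-3, was graded over the 3 substrates. It had 5.40 and 6.05 CPM on 1 kPa, 2.82 and 2.61 CPM on 20 kPa, and 1.02 and 1.27 CPM on glass, with no overlap. It rose 5.02-fold on 1 kPa (log2 fold change 2.33, SE 0.25, adjusted p = 6.1e-09) and 2.39-fold on 20 kPa (1.26, SE 0.28, adjusted p = 0.00051). It was lower on 20 kPa than on 1 kPa (-1.07, SE 0.21, adjusted p = 0.00041). Its glass libraries held 22 counts each, so the size of the rise rests on few counts.

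Ngfr, the low-affinity receptor of all neurotrophins, had 14.4 and 15.7 CPM on 1 kPa, 10.8 and 10.6 CPM on 20 kPa, and 2.82 and 1.27 CPM on glass. The glass libraries differed from each other by more than those of either gel, at 61 and 22 counts. Ngfr rose 7.07-fold on 1 kPa (log2 fold change 2.82, SE 0.19, adjusted p = 2.9e-13) and 5.02-fold on 20 kPa (2.33, SE 0.20, adjusted p = 6e-11). Without glass replicate 1 these became 11.7-fold and 8.34-fold, and without glass replicate 2 they became 5.31-fold and 3.78-fold. Ngfr was lower on 20 kPa than on 1 kPa (-0.49, SE 0.15, adjusted p = 0.016). Only the call depended on the fit, with -0.50 in DESeq2 (adjusted p = 0.42), -0.43 without 1 kPa replicate 2 (0.15), -0.50 without 20 kPa replicate 1 (0.11) and -0.48 without 20 kPa replicate 2 (0.12).

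Some Schwann cell and skeletal muscle markers moved with Ngfr. Of 13 Schwann markers 11 were tested, of which 5 were higher and 2 lower on 1 kPa, and 8 were higher and 2 lower on 20 kPa. Over all tested genes 23% were called higher and 22% lower on 1 kPa, and 22.3% higher and 19.6% lower on 20 kPa. Sox10, the lineage factor of Schwann cells, had 4.58 and 4.14 CPM on 1 kPa, 2.19 and 2.13 CPM on 20 kPa, and 0.877 and 0.406 CPM on glass. Mbp, a myelin gene, fell on both gels and averaged 1.48 ± 0.11 CPM on 1 kPa, 1.58 ± 0.11 CPM on 20 kPa and 8.60 ± 0.21 CPM on glass (SD, n = 2). Gfap and Ncmap rose on 20 kPa against glass (log2 fold changes 2.30 and 3.09), and had 0.02 and 0.16 on 1 kPa, which did not pass. Of 8 skeletal muscle markers 4 were tested, and 4 were higher on 1 kPa and 3 on 20 kPa. Myog (1 and 2 counts), Myh3 (3 and 3) and Chrna1 (3 and 6) were under the filter on glass. They were tested only because they were higher on the gels, which makes a rise the likely call. Des, with 45 and 43 counts on glass, was called higher on 1 kPa and not on 20 kPa. Foxd3 of the Schwann list, with 4 and 6 counts on glass, also passed the filter only through the gels. The muscle list summed to 18.3 to 20.7 CPM on 1 kPa, 8.76 to 10.9 CPM on 20 kPa and 2.40 to 3.13 CPM on glass.

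Of the other marker lists, endothelial genes summed to 30.5 to 33.4 CPM on 1 kPa, 27.8 to 28.2 CPM on 20 kPa and 15.1 to 15.7 CPM on glass, with 5 of 7 called higher on 1 kPa and 6 on 20 kPa. In 3 further lists that summed higher on both gels, a single gene made most of the sum on each gel. Melanocyte genes summed to 23.5 to 24.1, 20.6 to 21.2 and 9 to 11.2 CPM on 1 kPa, 20 kPa and glass, of which Mitf averaged 21.8, 18.6 and 9.02 CPM. Macrophage and leukocyte genes summed to 48.4 to 51, 19.3 to 22.8 and 13.3 to 13.8 CPM in the same order of groups, of which Cd14 averaged 42.5, 14.1 and 5.26 CPM and was the only one called higher, while Csf1r was called lower on 20 kPa. Keratinocyte genes summed to 25.8 to 27.7 CPM on 1 kPa, 26.7 to 26.9 CPM on 20 kPa and 18.1 to 22.8 CPM on glass. On each gel 1 was called higher (Trp63) and 3 lower. Trp63 averaged 23.2, 22.5 and 11.1 CPM on 1 kPa, 20 kPa and glass. Pericyte and vascular smooth muscle genes summed to 213 to 221 CPM on 1 kPa, 251 to 265 CPM on 20 kPa and 319 to 360 CPM on glass. Cspg4 made most of each sum, with means of 187, 231 and 299 CPM on 1 kPa, 20 kPa and glass. Of these 7 genes 3 were called higher on each gel (Rgs5, Kcnj8 and Abcc9), with 2 lower on 1 kPa and 3 lower on 20 kPa. Over all tested genes 23% were called higher and 22% lower on 1 kPa, and 22.3% higher and 19.6% lower on 20 kPa. Kcnj8 and Abcc9 had 0 and 1 counts in the glass libraries and Rgs5 had 7 and 1, so their rises rest on few counts. All 3 were under the filter on glass and were tested only because they were higher on the gels. The part of Schwann, muscle or any of these other cells in the rises of Ngfr, Ntrk2, Ntrk3 and Cntfr was not tested.

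The GDNF receptors moved in opposite directions. Gfra1, the coreceptor preferred by GDNF, had 280 and 286 CPM on 1 kPa, 461 and 413 CPM on 20 kPa, and 209 and 210 CPM on glass. The groups did not overlap, and 20 kPa was the highest. Gfra1 was 1.35-fold higher on 1 kPa (log2 fold change 0.43, SE 0.06, adjusted p = 5.2e-07) and 2.08-fold higher on 20 kPa (1.06, SE 0.06, adjusted p = 3.2e-15). It was also higher on 20 kPa than on 1 kPa (0.63, SE 0.06, adjusted p = 1.5e-09), and was the only member of the 9 called higher there.

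Gfra2 had 5.40 and 5.09 CPM on 1 kPa, 3.80 and 4.74 CPM on 20 kPa, and 26 and 25.3 CPM on glass. The gel libraries all lay far below the glass libraries. It fell by 2.29 on the log2 scale on 1 kPa (SE 0.13, adjusted p = 4.3e-15) and fell by 2.59 on 20 kPa (SE 0.13, adjusted p = 4.6e-16). Between the gels the difference was -0.30 (SE 0.17, adjusted p = 0.23), which did not pass.

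The balance of paired receptors was also taken within each library, as a ratio of counts per exonic length that needs no library scaling. Gfra1 over Gfra2 was 33.5 and 36.3 on 1 kPa, 78.5 and 56.3 on 20 kPa, and 5.19 and 5.38 on glass. The 3 groups did not overlap. Ntrk2 over Ntrk3 was 11.6 and 9.77 on 1 kPa, 21.5 and 20.6 on 20 kPa, and 3.91 and 2.63 on glass, again with the highest values on 20 kPa. Ngfr over Ntrk2 ran the other way, with 2.02 and 2.32 on 1 kPa, 1.55 and 1.72 on 20 kPa, and 6.21 and 3.33 on glass. The exonic lengths of Ntrk2 (19292 bases) and Ntrk3 (30170 bases) cover all annotated forms, so the size of each ratio with them depends on which forms are made, which counts per gene do not show.

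**Figure D3:**
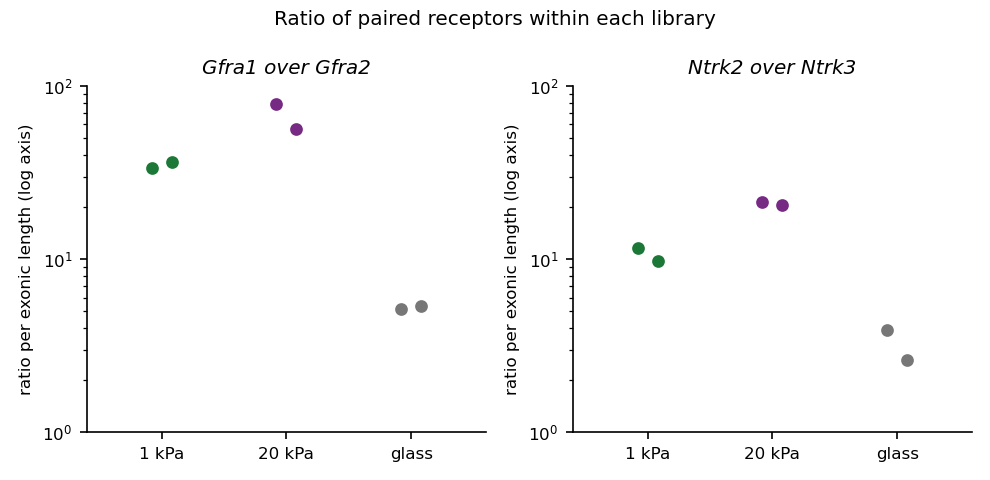
Ratio of Gfra1 to Gfra2 (left) and of Ntrk2 to Ntrk3 (right), each as counts per exonic length within a library (vertical axes, log scale), for the 2 libraries on 1 kPa, 20 kPa and glass (points). Both ratios are highest on 20 kPa, where Gfra1 over Gfra2 is 78.5 and 56.3, and lowest on glass, where it is 5.19 and 5.38.

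Cntfr, the ligand-binding receptor of CNTF, had 7.54 and 7.78 CPM on 1 kPa, 7.06 and 5.95 CPM on 20 kPa, and 0.877 and 0.927 CPM on glass. All gel libraries stood above the glass libraries, which held 19 and 16 counts. The log2 fold change was 3.08 (SE 0.24, adjusted p = 4.2e-12) on 1 kPa and 2.85 (SE 0.24, adjusted p = 4.2e-11) on 20 kPa. The gels differed by -0.24 for 20 kPa against 1 kPa (SE 0.17, adjusted p = 0.36), which did not pass.

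Levels per exonic length, in CPM per kilobase, set Gfra1 first on every substrate, at 51.7 on 1 kPa, 79.8 on 20 kPa and 38.3 on glass. Second place was held by Gdnf (4.56) on 1 kPa, Bdnf (3.70) on 20 kPa and Gfra2 (7.25) on glass. On 1 kPa the libraries of Gdnf and Ngfr (4.36) overlapped, and on 20 kPa those of Gdnf (3.16) and Ngfr (3.10) did so too. Gfra2 was seventh on both gels, at 1.48 on 1 kPa and 1.21 on 20 kPa. Ntrk3 was last throughout, at 0.190 on 1 kPa, 0.0901 on 20 kPa and 0.0380 on glass. The exonic lengths cover all annotated forms, so the places of Ntrk2 and Ntrk3 depend on which forms are made. Not divided by length, Ntrk3 averaged 5.72 CPM on 1 kPa and 2.72 CPM on 20 kPa, above Ntf3 at 0.854 and 0.533 CPM. Both averaged 1.15 CPM on glass. On glass the libraries of Ntf3 (0.672) and Ngfr (0.594) overlapped, and in each group the other neighbours in the order did not.

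The other ligands and receptors of these systems were described from a list of 30 genes, 24 of which were tested. On 1 kPa 12 were higher and 6 lower than on glass, where 45% of all genes were called, with a median log2 fold change of 0.30 beside 0.00 over all tested genes. On 20 kPa 11 were higher and 8 lower, where 41.8% of all genes were called, with a median of 0.41 beside 0.02. Between the gels, 5 were higher and 6 lower on 20 kPa than on 1 kPa, where 18.9% of all genes were called, with a median of -0.02 beside 0.00. The most negative value on 1 kPa was that of L1cam, a neural cell adhesion molecule, which had 10.5 and 11.5 CPM on 1 kPa, 18.8 and 18.3 CPM on 20 kPa, and 34.3 and 27.7 CPM on glass (log2 fold changes -1.50, SE 0.11, and -0.74, SE 0.10).

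**Figure D4:**
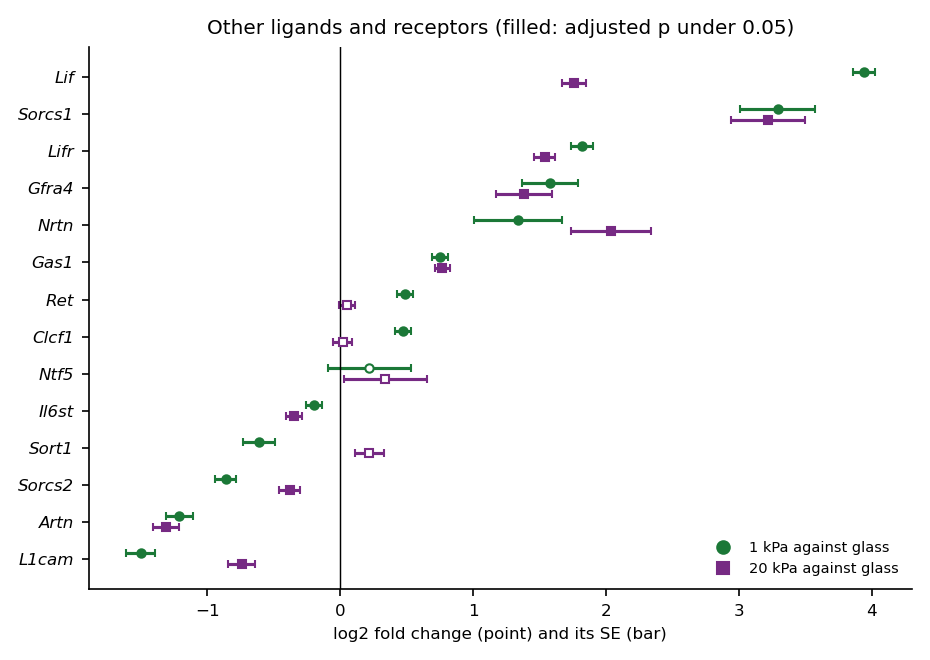
log2 fold change (horizontal axis) with its SE (bars) of 14 genes named in the text among the 24 tested other ligands and receptors, on 1 kPa against glass (circles) and 20 kPa against glass (squares); filled symbols have an adjusted p under 0.05. Lif lies furthest right on 1 kPa at 3.94 and L1cam furthest left at -1.50.

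In the GDNF system, the kinase Ret, through which all GFRA coreceptors signal, was well expressed on every substrate. It averaged 147 ± 3.3 CPM on 1 kPa, 109 ± 0.58 CPM on 20 kPa and 105 ± 2.5 CPM on glass (SD, n = 2). It rose on 1 kPa (log2 fold change 0.49, SE 0.06, adjusted p = 4.8e-08) and had 0.05 on 20 kPa (SE 0.06, adjusted p = 0.57). On 20 kPa Ret was at 0.736 of its level on 1 kPa (adjusted p = 1.1e-06), where Gfra1 was higher. Artn, which encodes artemin, the ligand of Gfra3, had 16.9 and 15.2 CPM on 1 kPa, 14.2 and 15.7 CPM on 20 kPa, and 37.9 and 36.3 CPM on glass. It fell on both gels (-1.21 on 1 kPa and -1.31 on 20 kPa, SE 0.10 each), while its coreceptor Gfra3 had at most 5 counts in any library. Nrtn, which encodes neurturin, the ligand of Gfra2, had 2.73 and 2.35 CPM on 1 kPa, 3.12 and 5.13 CPM on 20 kPa, and 1.11 and 0.869 CPM on glass. It rose by 1.34 (SE 0.33) on 1 kPa and by 2.04 (SE 0.30) on 20 kPa on the log2 scale, opposite in sign to Gfra2. Gfra4, the persephin coreceptor, rose by 1.58 and 1.38, and Gas1, a GFRA-related protein that can bind Ret, by 0.75 and 0.77 on 1 kPa and 20 kPa against glass.

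In the neurotrophin system, Ntf5, which encodes neurotrophin-4, another ligand of Ntrk2, had log2 fold changes of 0.22 and 0.34 on 1 kPa and 20 kPa against glass, neither past the threshold (adjusted p = 0.60 and 0.41).

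The sortilin family, of which Sort1 and Sorcs2 bind proneurotrophins together with Ngfr, moved in both directions. Sorcs1 had 5.60 and 6.10 CPM on 1 kPa, 6.08 and 5.03 CPM on 20 kPa, and 0.646 and 0.521 CPM on glass, a rise of 3.29 (SE 0.28) and 3.22 (SE 0.28) on the log2 scale. Sorcs2 fell on both gels, by 0.86 (SE 0.08) on 1 kPa and by 0.38 (SE 0.08) on 20 kPa. Sort1 was lower on 1 kPa than on glass (-0.61, SE 0.12, adjusted p = 1e-04), and on 20 kPa its log2 fold change was 0.22 (adjusted p = 0.11). The difference of the gels was called for Sort1 (0.84, SE 0.12) and Sorcs2 (0.48, SE 0.08), both higher on 20 kPa than on 1 kPa.

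In the CNTF system, the receptor subunit Lifr moved in the direction of Cntfr. It had 77.2 and 68.5 CPM on 1 kPa, 60.9 and 59.0 CPM on 20 kPa, and 20.4 and 20.9 CPM on glass (log2 fold changes 1.82 and 1.54, SE 0.08 each). Il6st, the shared signalling subunit, was the most abundant of these genes and fell slightly, to 1490 ± 7.7 CPM on 1 kPa and 1350 ± 51 CPM on 20 kPa, against 1715 ± 82 CPM on glass (SD, n = 2). On 1 kPa its log2 fold change was -0.20 (adjusted p = 0.0061), and the size held while the call was lost without 1 kPa replicate 1 (-0.20, adjusted p = 0.074) or 1 kPa replicate 2 (-0.21, adjusted p = 0.071). Cntf itself had 0 to 5 counts per library, and 78.9% of its exonic length overlaps Zfp91. Clcf1, a cytokine that signals through Cntfr, was higher on 1 kPa than on glass (0.47, SE 0.06) and had 0.02 on 20 kPa (adjusted p = 0.87). Lif, a cytokine that binds Lifr without Cntfr, had 147 and 144 CPM on 1 kPa, 31.9 and 32.4 CPM on 20 kPa, and 10.2 and 8.63 CPM on glass.

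Of 30 genes for proneurotrophin processing and receptor adaptors, 26 were tested, with 12 higher and 3 lower on 1 kPa, and 11 higher and 4 lower on 20 kPa than on glass. Over all genes 45% were called on 1 kPa and 41.8% on 20 kPa. Their median log2 fold changes were 0.15 and 0.07, beside 0.00 and 0.02 over all genes. The proprotein convertases Pcsk5 and Pcsk6, which can cleave growth factor precursors, moved in opposite directions. Pcsk5 averaged 350 ± 12 CPM on 1 kPa, 336 ± 15 CPM on 20 kPa and 52.1 ± 2.6 CPM on glass, and Pcsk6 averaged 34.3 ± 1.1, 36.0 ± 0.18 and 103 ± 6.3 CPM on 1 kPa, 20 kPa and glass (SD, n = 2). The convertase Furin rose by 0.49 (SE 0.06) and 0.24 (SE 0.06), and Plat, the plasminogen activator upstream of plasmin cleavage of proBDNF, by 0.60 (SE 0.07) and 0.69 (SE 0.07). The kinase Jak2 rose by 1.27 and 0.77, and Socs3, a STAT3 target that restrains the pathway, by 0.75 and 0.46 (SE 0.06 to 0.07). Between the gels, 2 of the 26 were higher and 7 lower on 20 kPa than on 1 kPa, where 18.9% of all genes were called.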

How the data were processed

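The deposited values are raw counts per gene, which the authors did not normalise. Trim Galore, cutadapt, STAR 2.7.10b, featureCounts and mm10 are named per the submitters' processing notes, with settings not known here. Of 57010 identifiers, 91.4% matched GENCODE M21 (GRCm38), 99.9% of them with a later version in the table, so exon boundaries may differ. Groups and replicate numbers come from the sample titles.

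Genes were kept with filterByExpr of edgeR 4.0.16 (R 4.3.3), which left 16093. All 6 libraries entered 1 quasi-likelihood fit with group as the only term and TMM factors, with 3 residual degrees of freedom. The threshold was an adjusted p of 0.05 (Benjamini-Hochberg over all tested genes). The SE was taken as the size of the log2 fold change over the root of F. With 2 libraries per group, an exact permutation test of 2 groups alone cannot pass the threshold, and no permutation test was run. The fit was tested on simulated data. Alternatives were other scalings, DESeq2 1.42.0, limma-voom (limma 3.58.1), other filters, 2 groups alone, a replicate block, and leaving out each library.

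The members, lists and tests were chosen with earlier results of these data known. All 9 members are named. Partners were named if they define a ligand or receptor or passed the threshold, and the 3 tested genes of at least 5 CPM most correlated with each member (log2 CPM, prior count 2) were listed. Intervals and floors cover counting error only. Promoter windows of 250 bases come from RefSeq, GRCm38.p6. Results for some genes are not reported here.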

Additional observations from a re-analysis of the deposited data

How the results depend on the processing

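The members' 27 fold changes were recomputed under 14 alternatives. Of 375 recomputed values, 366 kept their direction and their side of the threshold, 6 lost a call, 2 gained one and 1 changed sign: Ntf3 on 1 kPa against glass, at 0.21 without glass replicate 2 and -0.86 without glass replicate 1. The cause was not tested, and Ntf3 gave no value with a filter of 1 CPM in 2 libraries. The lost calls were those of Gdnf and Ngfr for 20 kPa against 1 kPa. Leaving out a library gave 1 to 2 members called lower for 20 kPa against glass, 1 to 3 for 20 kPa against 1 kPa, and 1680 to 3824 genes called in all for 20 kPa against 1 kPa, against 3035 in the fit with all 6 libraries and 2022 with DESeq2. No scaling moved the median of all genes by over 0.04 (log2), but with total counts 60.9% of the calls of 20 kPa against 1 kPa were higher in place of 47.4%. Of 966 recomputed partner values (an alternative added after seeing the data), 935 kept direction and call. The 5 that changed sign were below the threshold: Clcf1 on 20 kPa against glass (-0.06 without 20 kPa replicate 2, -0.03 without glass replicate 2, highest 0.09 without 20 kPa replicate 1), and, for 20 kPa against 1 kPa, Ntf5 (-0.11 without 20 kPa replicate 1, 0.32 without replicate 2), Gas1 (-0.01 without 1 kPa replicate 2, 0.05 without replicate 1) and Sorcs1 (0.06 without 20 kPa replicate 2, -0.21 without replicate 1). The replicate number as a block left the members' calls at 6 higher and 1 lower in both comparisons with glass. Same-numbered libraries did not deviate together (correlations -0.03, -0.03 and -0.02 over 16093 genes). Depth limits Ntf3, and the glass values of Ngfr, Ntrk3 and Cntfr.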

Other observations

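The genes whose pattern over the 6 libraries was most like that of each member were sought among 10620 named genes of at least 5 CPM, as a description with no test. All points share these 6 libraries in 3 groups, so many genes correlate strongly. Over 0.9 lay 1386 genes for Ntrk2, 1378 for Cntfr, 1531 for Gfra2 and 560 for Gfra1, but 275 for Bdnf and 23 for Ntf3. Among the nearest to Ntrk2 were Trf and Pcdhgc5 (Pearson r of 0.999 each), and nearest to Cntfr were F5, Pi15 and Cacna1d. Gfra1, with its highest level on 20 kPa, lay nearest to Eid1, Kctd12 and Capn6 (0.998 each). Gfra2 lay nearest to Nde1 (0.999), Dusp3 and H2afj. For Ntrk3, graded from 1 kPa to glass, Olfm1, Arrdc3 and Il1rl2 came first (0.999 each), for Gdnf Rapgefl1 (0.999), and for Ngfr Camkk2 (0.999).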
